A study of Homo sapiens with 24 samples.

Results

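The 8 genes LOR, IVL, EVPL, PPL, CNFN, CSTA, C1orf68 and KPRP encode precursors of the cornified envelope other than the small proline-rich and late cornified envelope families. They were taken by symbol from a table of read counts for 26364 genes, and all 8 were present. The counts came from 24 RNA sequencing libraries of nTERT-1 cells, an immortalised human keratinocyte line. Libraries were made in pairs from KAT2A_KD, KAT2B_KD, KAT2AB_KD and NT cells, each at a Subconfluent, a Confluent and a Differentiated stage, which gives 12 groups of 2. KAT2A and KAT2B encode paralogous histone acetyltransferases, and KD is read here as knockdown, of 1 paralog or of both. The labels put a keratinocyte differentiation treatment on every library, and a deposited sample table gives day 4 for the Differentiated stage. They do not say what NT stands for, how the knockdowns were made or whether a line is 1 clone. They also do not say whether the libraries of a group came from separate cultures. Every p-value here rests on the spread between libraries of the same group, which may therefore be technical. In the main edgeR fit that spread was pooled over the 12 groups and shared in part across genes.

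The cornified envelope is the insoluble protein shell that replaces the plasma membrane of a keratinocyte as it reaches the skin surface. Transglutaminases crosslink precursor proteins to one another: envoplakin and periplakin, 2 plakin proteins that tie desmosomes to keratin filaments, and involucrin form an early scaffold beneath the membrane, and loricrin and other late precursors then reinforce it. Several of the genes, among them LOR, IVL, C1orf68 and KPRP, lie in the epidermal differentiation complex on chromosome 1, together with the small proline-rich, late cornified envelope and S100-fused type families. In bulk RNA, fewer cells of a type and less RNA per cell cannot be told apart.

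Library totals ran from 8010178 to 16054003 counts, and the correlation between the 2 libraries of a group, taken over all genes tested, from 0.963 to 0.981. KAT2A stood at 3.03 and 4.94 CPM (counts scaled to library size with edgeR's TMM factors) in KAT2A_KD Differentiated libraries, at 1.98 and 6.85 CPM in KAT2AB_KD and at 12.8 and 9.995 CPM in NT. KAT2B stood at 4.58 and 8.59 CPM in KAT2B_KD, at 5.85 and 18.9 CPM in KAT2AB_KD and at 44.8 and 40.4 CPM in NT at the same stage. At the Differentiated stage each targeted gene was thus lower in both libraries of its knockdown than in both NT libraries. The second KAT2AB_KD library held more of both genes than the first, and its 18.9 CPM of KAT2B was above both KAT2B_KD libraries. The check is not given here for the earlier stages. The keratinocyte label was checked against basal markers (KRT5, KRT14, TP63, ITGB4 and COL17A1), which were all detected in every library. These summed to 14893 to 16873 CPM in Subconfluent, 19334 to 29149 CPM in Confluent and 27535 to 50229 CPM in Differentiated libraries. Spinous markers (KRT1, KRT10, DSG1 and DSC1) summed to 396 to 531 CPM in Subconfluent, 507 to 871 CPM in Confluent and 10204 to 32642 CPM in Differentiated libraries. The 7 fibroblast markers summed to at most 53.7 CPM and 6 melanocyte markers to at most 13.0 CPM in any library.

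The promoters of LOR, IVL, CNFN and KPRP are shown because these 4 precursors fell together in KAT2B_KD Differentiated libraries. Of the 8 genes 5 had a promoter in the RefSeq table (build GRCh38.p14), which holds 250 bases before to 50 after a gene's start, 300 in all. Capitals mark 2 searched motifs, the AP-1 element TGANTCA and the TATA box TATAAA, which were looked for on both strands.
LOR promoter, chr1:153259437-153259736, plus strand: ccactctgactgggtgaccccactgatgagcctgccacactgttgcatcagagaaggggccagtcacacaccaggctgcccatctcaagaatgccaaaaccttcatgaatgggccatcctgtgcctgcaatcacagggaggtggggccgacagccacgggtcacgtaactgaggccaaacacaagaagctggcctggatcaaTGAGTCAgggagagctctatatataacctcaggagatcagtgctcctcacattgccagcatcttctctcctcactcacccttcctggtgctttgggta
IVL promoter, chr1:152908296-152908595, plus strand: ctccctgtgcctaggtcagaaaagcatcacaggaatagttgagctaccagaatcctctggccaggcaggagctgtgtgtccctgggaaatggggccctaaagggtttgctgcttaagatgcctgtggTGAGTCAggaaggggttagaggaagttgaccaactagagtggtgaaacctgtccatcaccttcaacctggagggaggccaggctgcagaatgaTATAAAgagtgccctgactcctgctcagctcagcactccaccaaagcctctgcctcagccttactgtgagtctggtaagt
CNFN promoter, chr19:42390248-42390547, minus strand: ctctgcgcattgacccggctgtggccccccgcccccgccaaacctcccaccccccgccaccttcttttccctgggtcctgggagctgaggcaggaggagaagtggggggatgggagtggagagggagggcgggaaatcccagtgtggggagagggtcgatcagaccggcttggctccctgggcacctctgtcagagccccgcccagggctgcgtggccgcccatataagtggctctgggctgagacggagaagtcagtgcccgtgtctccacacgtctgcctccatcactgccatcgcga
KPRP promoter, chr1:152757775-152758074, plus strand: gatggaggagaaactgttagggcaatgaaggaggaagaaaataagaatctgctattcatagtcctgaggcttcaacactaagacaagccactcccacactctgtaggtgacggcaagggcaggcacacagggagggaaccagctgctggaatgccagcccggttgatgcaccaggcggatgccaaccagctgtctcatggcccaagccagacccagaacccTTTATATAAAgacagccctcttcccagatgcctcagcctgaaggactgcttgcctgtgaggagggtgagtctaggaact
The AP-1 letters TGAGTCA began at base -48 of LOR and at base -123 of IVL, counted from the gene's start, and were in neither CNFN nor KPRP. The TATA box letters began at base -30 of IVL and at base -25 of KPRP, where a match on the other strand at base -29 overlapped it. No match was found in the CNFN window or in that of C1orf68, and the grainyhead letters AACNGGTT were in none of the 5. Over all 35116 promoters of this length in the table, 7.71% held the AP-1 letters, 11.5% the TATA box and 1.73% the grainyhead letters. A match describes the letters of the window and no measurement of binding was used here.

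**Figure D1:**
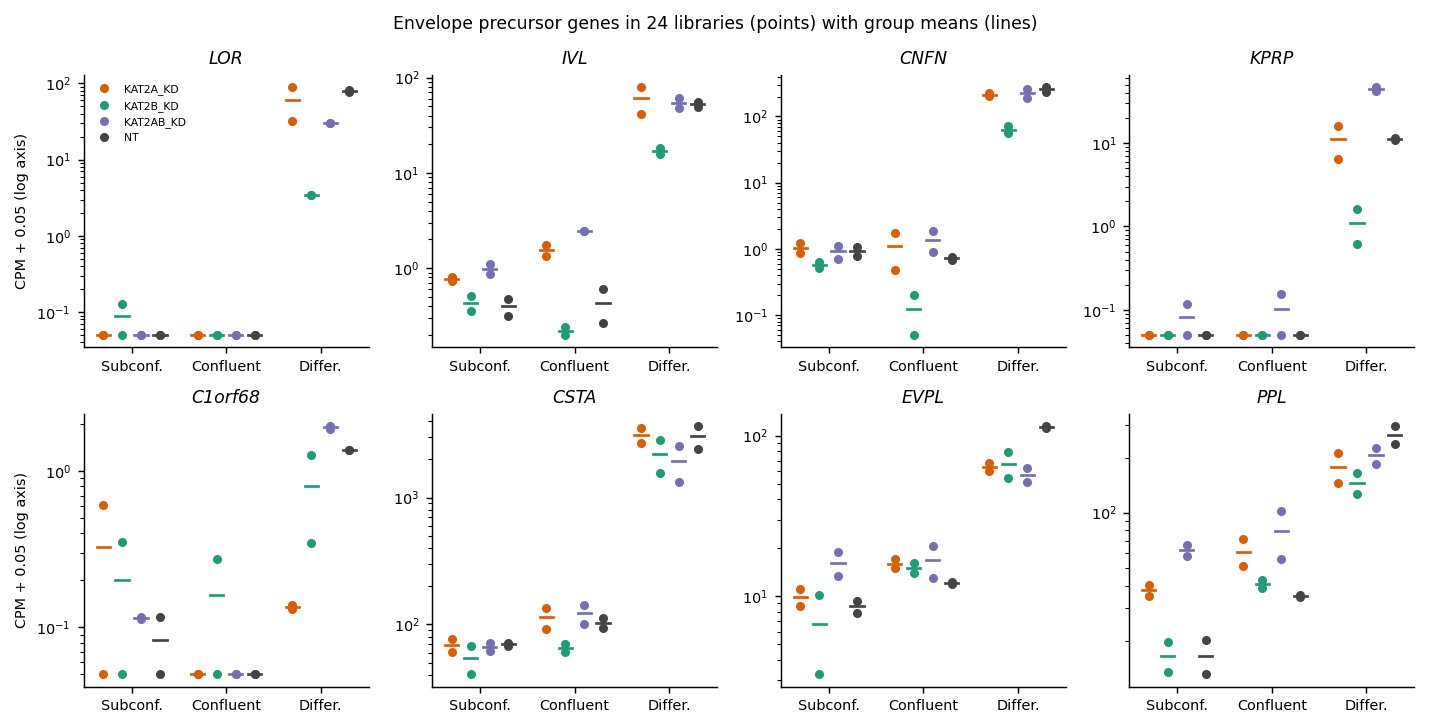
Level of each of the 8 genes in every library (points) and the group mean (lines), as CPM plus an offset of 0.05 on a log axis, by stage and genotype. The Differentiated libraries sit above the earlier stages for LOR, IVL, CNFN, CSTA, EVPL and PPL in every genotype, and the KAT2B_KD points of LOR, IVL, CNFN and KPRP lie lowest at that stage.

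The envelope precursors were read mainly at the Differentiated stage. In NT, LOR, the glycine-rich protein that makes up much of the mature envelope, was read 1750 times in the Differentiated libraries, at 78.0 and 81.0 CPM, and not once in the Confluent or Subconfluent libraries. With 3 reads over the 2 libraries as the limit that a count of 0 allows, LOR was at least 710-fold higher in NT Differentiated than in NT Confluent libraries. Across all genotypes, 1 LOR read appeared before differentiation, in a KAT2B_KD Subconfluent library. IVL, the early scaffold protein involucrin, had 55.5 and 49.3 CPM in NT Differentiated libraries, against 0.550 and 0.214 CPM in NT Confluent ones. CNFN, the small cysteine-rich envelope protein cornifelin, had 237 and 279 CPM in NT Differentiated and 0.628 and 0.712 CPM in NT Confluent libraries. Both genes stayed near 1 CPM or below until the last stage in NT, and their log2 changes were 7.09 (SE 0.40, edgeR adjusted p = 2.13e-11) and 8.56 (SE 0.43, edgeR adjusted p = 5.63e-12). KPRP, keratinocyte proline-rich protein, had 11.6 and 10.9 CPM in NT Differentiated libraries and no read in NT Confluent ones, at least 101-fold higher. C1orf68, the proline-rich gene that RefSeq names KPLCE, had 15 and 14 reads in NT Differentiated libraries and none in NT Confluent ones, at least 11.8-fold higher.

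EVPL, PPL and CSTA were read at higher levels before differentiation and rose as well. EVPL, envoplakin, had 114 and 112 CPM in NT Differentiated libraries, against 11.9 and 12.2 CPM in NT Confluent ones, a log2 change of 3.24 (SE 0.35, edgeR adjusted p = 2.11e-07). PPL, periplakin, had 296 and 238 CPM in NT Differentiated and 35.4 and 34.7 CPM in NT Confluent libraries, a log2 change of 2.93 (SE 0.30, edgeR adjusted p = 8.28e-08). CSTA, which encodes the cysteine protease inhibitor cystatin A, had 2425 and 3659 CPM in NT Differentiated and 94.1 and 113 CPM in NT Confluent libraries, a log2 change of 4.88 (SE 0.40, edgeR adjusted p = 4.51e-09). No library of one stage overlapped the other for any of the 3. Per length of exon, as CPM per kilobase in NT Differentiated libraries, the mean levels ran in the order CSTA (2216), CNFN (428), LOR (64.7), PPL (42.8), IVL (24.4), EVPL (16.98), KPRP (4.51) and C1orf68 (1.39). The ranges of neighbours in that order did not overlap between the 2 NT libraries. Exon lengths came from the GENCODE v29 annotation, so these levels are approximate. Of all genes tested, 24.3% were higher in NT Differentiated than in NT Confluent libraries. LOR, C1orf68 and KPRP passed the filter on low counts only through Differentiated libraries, which by itself favours a rise at that stage. No count over the 8 genes is therefore drawn from these comparisons.

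The same stage change was found in the knockdowns for IVL, CNFN, CSTA, EVPL and PPL. LOR, KPRP and C1orf68 passed the filter only through Differentiated libraries, so their values below are descriptive and no support for that change. In KAT2A_KD Differentiated against Confluent libraries, with 21.5% of all genes higher, the log2 changes were 7.56 for CNFN, 5.32 for IVL, 4.76 for CSTA, 2.01 for EVPL and 1.54 for PPL, and the highest edgeR adjusted p among these was 1.70e-04. LOR was at least 452-fold and KPRP at least 83.0-fold higher there. In KAT2B_KD, with 19.3% of all genes higher, the log2 changes were 6.58 for IVL, 5.08 for CSTA, 2.16 for EVPL and 1.84 for PPL, with edgeR adjusted p of at most 3.46e-05. CNFN had 1501 reads in KAT2B_KD Differentiated libraries and 2 in KAT2B_KD Confluent ones, a ratio of 743 with a 95% counting interval of 205 to 6144. LOR was at least 26.7-fold and KPRP at least 8.91-fold higher in KAT2B_KD Differentiated libraries, the smallest of these limits among the genotypes. In KAT2AB_KD, with 22.5% of all genes higher, the log2 changes were 7.38 for CNFN, 4.50 for IVL, 3.99 for CSTA, 1.77 for EVPL and 1.37 for PPL, with edgeR adjusted p of at most 4.45e-04. LOR was at least 333-fold and C1orf68 at least 20.6-fold higher there, and KPRP had 1120 reads in Differentiated libraries against 2 in Confluent ones. C1orf68 did not pass the test in KAT2A_KD (2 reads in Differentiated and none in Confluent libraries, edgeR adjusted p = 0.359) or in KAT2B_KD (17 against 3 reads, edgeR adjusted p = 0.154).

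Confluent culture was also set against Subconfluent culture, where LOR and KPRP had 0 to 2 reads in each library and could not have passed. In KAT2B_KD, 1 of the 8 passed the test, against 1.63% of all genes: PPL had 43.0 and 38.8 CPM in KAT2B_KD Confluent and 13.4 and 19.5 CPM in KAT2B_KD Subconfluent libraries, a log2 change of 1.31 (SE 0.29, edgeR adjusted p = 0.0217). That call was lost when any 1 of the 4 libraries was left out (edgeR adjusted p of 0.0514 to 0.300), while DESeq2 called 2 of the 8 there. None passed in KAT2A_KD, KAT2AB_KD or NT, where 0.241%, 0.622% and 0.939% of all genes did. At an unadjusted edgeR p under 0.05 there were 4 of the 8 in KAT2A_KD, 2 in KAT2AB_KD and 1 in NT, and DESeq2 called 0, 0 and 1. PPL in NT had 35.4 and 34.7 CPM in Confluent and 20.0 and 13.1 CPM in Subconfluent libraries, with an edgeR adjusted p of 0.0915.

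The comparison of each knockdown with NT at the Differentiated stage sets side by side the precursor levels reached there. It does not measure the rise into that stage, which is compared below as the difference of stage changes. In KAT2B_KD, 4 of the 8 genes fell and none rose, where 3.22% of all genes fell and 1.68% rose. The median log2 change of the 8 was -1.25, against 0.02 over all genes tested. LOR had 3.37 and 3.36 CPM in KAT2B_KD Differentiated libraries, against 78.0 and 81.0 CPM in NT ones. The levels lay far apart, 81 reads in all against 1750, and the change was 23.6-fold lower, -4.56 on the log2 scale (SE 0.45, edgeR adjusted p = 1.63e-04). KPRP had 0.561 and 1.57 CPM in KAT2B_KD and 11.6 and 10.9 CPM in NT Differentiated libraries, and was 10.2-fold lower (log2 change -3.35, SE 0.54, edgeR adjusted p = 0.00272). CNFN had 70.6 and 55.7 CPM in KAT2B_KD and 237 and 279 CPM in NT Differentiated libraries, and was 4.08-fold lower (log2 change -2.03, SE 0.29, edgeR adjusted p = 3.04e-04). IVL had 15.6 and 18.3 CPM in KAT2B_KD and 55.5 and 49.3 CPM in NT Differentiated libraries, and was 3.09-fold lower (log2 change -1.63, SE 0.27, edgeR adjusted p = 0.00122). For each of these 4 genes both KAT2B_KD libraries lay below both NT libraries, and the call was kept in every fit that left out 1 library.

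The plakins, the protease inhibitor and C1orf68 did not pass the test in KAT2B_KD. PPL had 127 and 165 CPM in KAT2B_KD and 296 and 238 CPM in NT Differentiated libraries, a log2 change of -0.87 (SE 0.28, edgeR adjusted p = 0.0789), and DESeq2 called it, making 5 genes by that tool. EVPL had 54.7 and 78.5 CPM in KAT2B_KD and 114 and 112 CPM in NT, a log2 change of -0.77 (SE 0.32, edgeR adjusted p = 0.190). For both plakins the groups did not overlap. CSTA had 2839 and 1571 CPM in KAT2B_KD and 2425 and 3659 CPM in NT, and the groups overlapped (log2 change -0.46, SE 0.34, edgeR adjusted p = 0.527). C1orf68 had 13 and 4 reads in KAT2B_KD against 15 and 14 reads in NT (log2 change -0.82, SE 1.06, edgeR adjusted p = 0.755). Counts were low, and what size of change could be detected at that depth was not tested. EVPL overlaps CDK3 and TEN1-CDK3 and PPL overlaps SEC14L5, each on the other strand, and since no strand setting of the counting is given, reads of such pairs cannot be told apart. Over all libraries TEN1-CDK3 had 7157 counts beside 9879 for EVPL, and SEC14L5 had 84 beside 28819 for PPL.

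**Figure D2:**
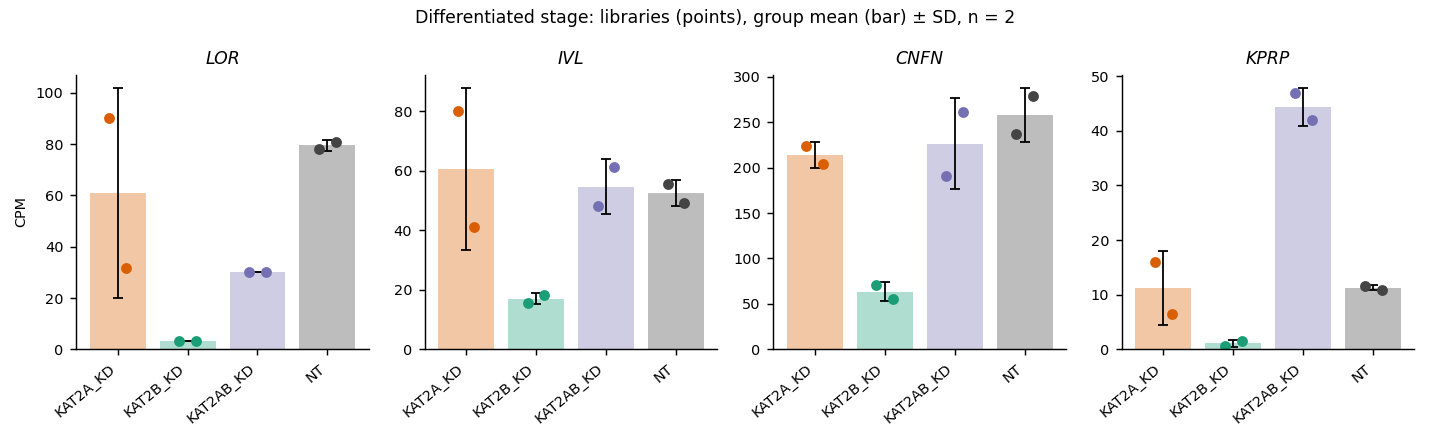
CPM of LOR, IVL, CNFN and KPRP in Differentiated libraries by genotype, with libraries as points, bars at the group mean and error bars of 1 SD (n = 2). KAT2B_KD has the lowest bar in each panel, and KPRP is highest in KAT2AB_KD, at 46.9 and 41.9 CPM.

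The KAT2AB_KD libraries did not show the KAT2B_KD levels. In KAT2AB_KD Differentiated libraries 1 of the 8 genes passed the test against NT, where 2.72% of all genes did. KPRP had 46.9 and 41.9 CPM in KAT2AB_KD and 11.6 and 10.9 CPM in NT Differentiated libraries, 3.94-fold higher (log2 change 1.98, SE 0.46, edgeR adjusted p = 0.0350). The groups lay apart, but the call was lost when any 1 of the 4 libraries was left out (edgeR adjusted p of 0.0806 to 0.263). LOR had 30.0 and 30.0 CPM in KAT2AB_KD and 78.0 and 81.0 CPM in NT Differentiated libraries, a log2 change of -1.41 (SE 0.38) that did not pass (edgeR adjusted p = 0.0769). That difference passed with DESeq2, with no filter on low counts, with a replicate block and in a fit of the compared groups alone. IVL had 48.0 and 61.2 CPM in KAT2AB_KD and 55.5 and 49.3 CPM in NT, a log2 change of 0.06 (SE 0.26), and CNFN had 191 and 262 CPM in KAT2AB_KD and 237 and 279 CPM in NT, a log2 change of -0.19 (SE 0.27). For both genes the groups overlapped. EVPL had 51.2 and 62.5 CPM in KAT2AB_KD and 114 and 112 CPM in NT (log2 change -0.996, SE 0.32, edgeR adjusted p = 0.109), PPL a log2 change of -0.38 (edgeR adjusted p = 0.555), CSTA one of -0.65 (edgeR adjusted p = 0.373) and C1orf68 one of 0.50 (edgeR adjusted p = 0.881).

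In KAT2A_KD Differentiated libraries none of the 8 genes passed the test against NT, where 1.17% of all genes did. With edgeR 3 of the 8, EVPL, PPL and C1orf68, had an unadjusted p under 0.05, and DESeq2 called none. For each of these the KAT2A_KD and NT libraries did not overlap. LOR had 90.0 and 31.9 CPM in KAT2A_KD, IVL 79.9 and 41.2 CPM and KPRP 16.05 and 6.38 CPM. In LOR, IVL and KPRP the first KAT2A_KD library lay above both NT libraries and the second below both. The differences in these genes were smaller than the spread between the KAT2A_KD libraries. CNFN had 224 and 204 CPM in KAT2A_KD and 237 and 279 CPM in NT Differentiated libraries (log2 change -0.27, SE 0.28). CSTA had 3527 and 2683 CPM in KAT2A_KD, which overlapped NT. EVPL had 67.96 and 60.2 CPM in KAT2A_KD against 114 and 112 CPM in NT (log2 change -0.82, SE 0.32, edgeR adjusted p = 0.246), and PPL had 211 and 146 CPM in KAT2A_KD against 296 and 238 CPM in NT (log2 change -0.58, SE 0.28, edgeR adjusted p = 0.375). C1orf68 had 1 read in each KAT2A_KD library against 15 and 14 in NT, a ratio of 0.0650 with a 95% counting interval of 0.00752 to 0.257, and an edgeR adjusted p of 0.221.

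Both plakin genes thus lay below both NT libraries in all 3 knockdowns at the Differentiated stage without passing the main edgeR test in any. With no filter on low counts EVPL passed in each knockdown and PPL in KAT2B_KD. EVPL in KAT2A_KD also passed in a fit of the compared groups alone. Beside these values, spinous markers summed to 19234 and 14862 CPM in KAT2A_KD, to 26572 and 18061 CPM in KAT2B_KD, to 14022 and 10204 CPM in KAT2AB_KD and to 32642 and 27525 CPM in NT Differentiated libraries, also lower in every knockdown library than in both NT libraries. Of these summed markers the lowest were in KAT2AB_KD, where LOR, IVL, CNFN and KPRP were all above their KAT2B_KD levels. Fibroblast markers summed to 31.9 to 38.7 CPM in the knockdown and to 53.7 and 40.5 CPM in the NT Differentiated libraries. The part of either list in the results was not tested.

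**Figure D3:**
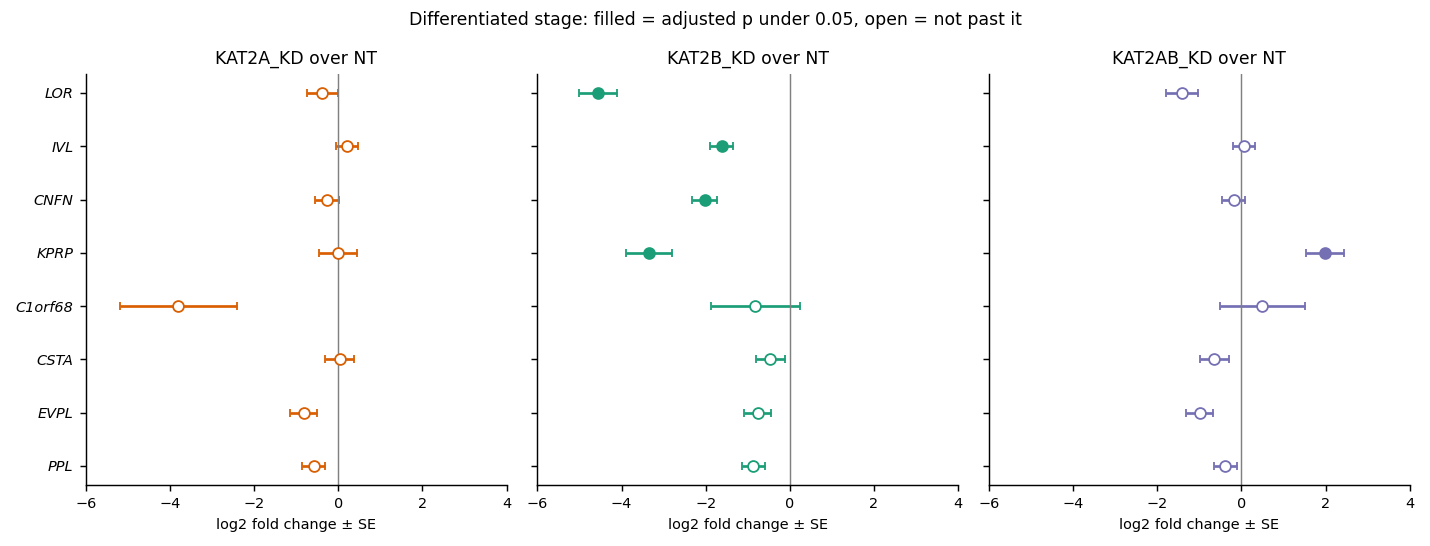
log2 fold change of each gene in KAT2A_KD, KAT2B_KD and KAT2AB_KD over NT in Differentiated libraries, with bars of 1 SE. Filled points passed an adjusted p of 0.05: LOR, IVL, CNFN and KPRP in KAT2B_KD, on the lower side, and KPRP in KAT2AB_KD, on the higher side.

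Direct comparisons between the knockdowns separated KAT2B_KD from the other two at the Differentiated stage. In KAT2AB_KD against KAT2B_KD, 4 of the 8 genes rose and none fell, where 6.57% of all genes rose. KPRP was 40.2-fold higher in KAT2AB_KD (log2 change 5.33, SE 0.56, edgeR adjusted p = 4.98e-05), LOR 8.90-fold (log2 change 3.15, SE 0.43, edgeR adjusted p = 6.04e-04), CNFN 3.59-fold (log2 change 1.84, SE 0.29, edgeR adjusted p = 2.74e-04) and IVL 3.22-fold (log2 change 1.69, SE 0.27, edgeR adjusted p = 3.62e-04). All 4 calls were kept in every fit that left out 1 library. In KAT2A_KD against KAT2B_KD the same 4 genes were higher, where 2.02% of all genes were. LOR was 18.1-fold higher (edgeR adjusted p = 2.70e-04), KPRP 10.2-fold (edgeR adjusted p = 0.00433), IVL 3.57-fold (edgeR adjusted p = 5.17e-04) and CNFN 3.39-fold (edgeR adjusted p = 0.00123). The KPRP call was lost without the first KAT2A_KD library (edgeR adjusted p = 0.0660) or without the first KAT2B_KD library (edgeR adjusted p = 0.0525). These comparisons share the KAT2B_KD libraries with each other and with the comparison against NT. None of the 8 passed in KAT2AB_KD against KAT2A_KD, where 0.336% of all genes did. There 3 had an unadjusted p under 0.05 with edgeR and DESeq2 called 1. KPRP had a log2 change of 1.98 (SE 0.46, edgeR adjusted p = 0.0992), LOR one of -1.02 (SE 0.38, edgeR adjusted p = 0.377), and C1orf68 had 47 reads in KAT2AB_KD against 2 in KAT2A_KD (edgeR adjusted p = 0.242).

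Before differentiation the calls against NT were in KAT2AB_KD, in PPL and IVL, on the higher side. In KAT2AB_KD Subconfluent libraries 1 of the 8 genes rose against NT, where 1.85% of all genes did. PPL had 66.9 and 58.1 CPM in KAT2AB_KD and 20.0 and 13.1 CPM in NT Subconfluent libraries, 3.76-fold higher (log2 change 1.91, SE 0.29, edgeR adjusted p = 6.14e-04), and the call was kept whichever library was left out. IVL had 1.06 and 0.815 CPM in KAT2AB_KD and 0.264 and 0.429 CPM in NT (log2 change 1.45, SE 0.51, edgeR adjusted p = 0.162). EVPL had 13.3 and 18.7 CPM in KAT2AB_KD and 9.32 and 7.81 CPM in NT (log2 change 0.90, SE 0.34, edgeR adjusted p = 0.195). Neither passed the test, although the groups did not overlap. CNFN (log2 change 0.01) and CSTA (log2 change -0.08) overlapped NT.

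In KAT2AB_KD Confluent libraries 2 of the 8 genes rose against NT, where 1.38% of all genes did. IVL had 2.38 and 2.43 CPM in KAT2AB_KD, 80 reads in all, and 0.550 and 0.214 CPM in NT, 10 reads in all. It was 6.28-fold higher (log2 change 2.65, SE 0.44, edgeR adjusted p = 0.00127), and the call was lost without the second NT Confluent library (edgeR adjusted p = 0.0560). PPL had 102 and 56.1 CPM in KAT2AB_KD and 35.4 and 34.7 CPM in NT, 2.26-fold higher (log2 change 1.18, SE 0.28, edgeR adjusted p = 0.0275). That call was lost without the first KAT2AB_KD library (log2 change 0.68, edgeR adjusted p = 0.499) and without either NT library (edgeR adjusted p of 0.213 and 0.194). CNFN had 1.80 and 0.833 CPM in KAT2AB_KD and 0.628 and 0.712 CPM in NT (log2 change 1.001, SE 0.49, edgeR adjusted p = 0.401). Even where it was highest before differentiation, in KAT2AB_KD Confluent libraries, IVL stayed far below the 48.0 and 61.2 CPM of KAT2AB_KD Differentiated libraries.

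**Figure D4:**
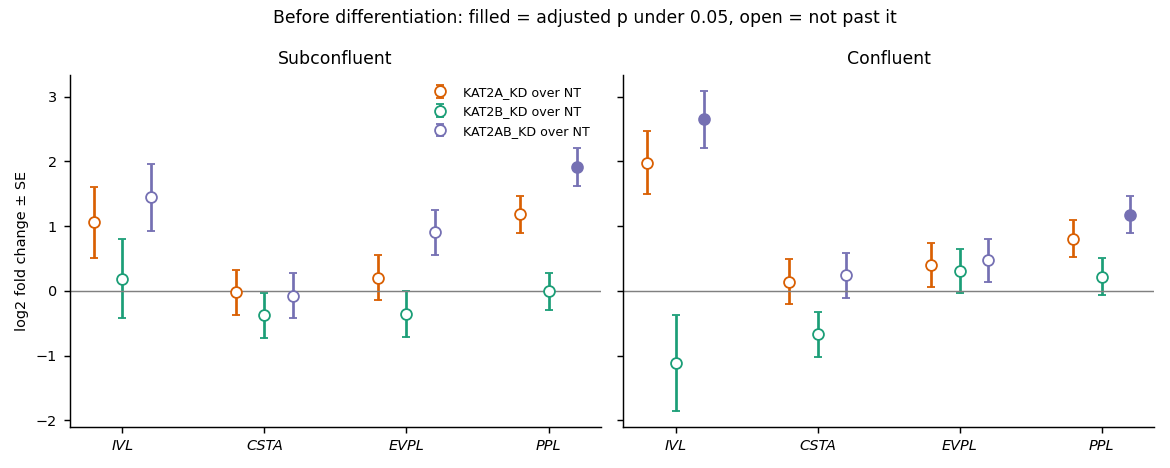
log2 fold change over NT, with bars of 1 SE, of IVL, CSTA, EVPL and PPL, the 4 genes with reads in every library, in Subconfluent and Confluent culture. Filled points passed an adjusted p of 0.05: PPL in KAT2AB_KD at both stages and IVL in KAT2AB_KD at the Confluent stage.

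The single knockdowns showed no call on the 8 genes against NT before differentiation. In KAT2A_KD none of the 8 passed at the Subconfluent stage (0.336% of all genes did) or the Confluent stage (0.641%), while 1 and 2 of them had an unadjusted p under 0.05 with edgeR, and DESeq2 called 1 and 0. PPL had 35.2 and 40.1 CPM in KAT2A_KD and 20.0 and 13.1 CPM in NT Subconfluent libraries (log2 change 1.18, SE 0.29, edgeR adjusted p = 0.0902). IVL had 1.68 and 1.29 CPM in KAT2A_KD and 0.550 and 0.214 CPM in NT Confluent libraries (log2 change 1.98, SE 0.49, edgeR adjusted p = 0.0785). In KAT2B_KD none passed at the Subconfluent stage (0.0952% of all genes did) or the Confluent stage (0.476%), with 0 and 1 under an unadjusted p of 0.05 with edgeR and none called by DESeq2. CNFN had 2 reads in KAT2B_KD against 18 in NT Confluent libraries, a ratio of 0.125 with a 95% counting interval of 0.0140 to 0.521 (edgeR adjusted p = 0.292). PPL was close to NT in KAT2B_KD at the Subconfluent stage, at 13.4 and 19.5 CPM against 20.0 and 13.1 CPM.

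Between the knockdowns, PPL was 3.79-fold higher in KAT2AB_KD than in KAT2B_KD Subconfluent libraries (log2 change 1.92, SE 0.29, edgeR adjusted p = 4.31e-04), the 1 gene of the 8 called where 2.16% of all genes were higher. At the Confluent stage 2 of the 8 were higher in KAT2AB_KD than in KAT2B_KD, where 1.28% of all genes were. IVL had 2.38 and 2.43 CPM in KAT2AB_KD and 0.148 and 0.193 CPM in KAT2B_KD (log2 change 3.76, SE 0.53, edgeR adjusted p = 3.13e-04). CNFN had 46 reads in KAT2AB_KD against 2 in KAT2B_KD, a ratio of 16.5 with a 95% counting interval of 4.31 to 140.0 (edgeR adjusted p = 0.00833), a call lost without the first KAT2AB_KD library or either KAT2B_KD library (edgeR adjusted p of 0.165, 0.0576 and 0.122). In KAT2A_KD against KAT2B_KD, 1 of the 8 was higher at the Confluent stage, where 0.260% of all genes were. IVL had 1.68 and 1.29 CPM in KAT2A_KD and 0.148 and 0.193 CPM in KAT2B_KD (log2 change 3.09, SE 0.59, edgeR adjusted p = 0.0178), and the call was lost when any 1 library was left out (edgeR adjusted p of 0.0526 to 0.412). None passed in KAT2A_KD against KAT2B_KD at the Subconfluent stage, where 0.578% of all genes did. None passed in KAT2AB_KD against KAT2A_KD at the Subconfluent stage (0% of all genes) or the Confluent stage (0.00635%). For those comparisons edgeR gave an unadjusted p under 0.05 to PPL in KAT2AB_KD against KAT2A_KD Subconfluent libraries (0.0169) and to PPL in KAT2A_KD against KAT2B_KD ones (5.17e-04), and DESeq2 called 0 and 1 gene of the 8 there. At the Confluent stage no gene of the 8 had an unadjusted p under 0.05 in KAT2AB_KD against KAT2A_KD, and DESeq2 called none.

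Whether differentiation itself moved a gene by a different amount was tested as the difference of the stage changes. For Differentiated against Confluent culture, 1 of the 8 genes passed, IVL in KAT2AB_KD minus NT, where 0.635% of all genes had a lower change. The IVL log2 change was 4.50 in KAT2AB_KD and 7.09 in NT, a difference of -2.59 (SE 0.52, edgeR adjusted p = 0.0114), and the call was lost without the second NT Confluent library (edgeR adjusted p = 0.145). IVL in the Differentiated libraries overlapped between these genotypes, and its Confluent level was the higher in KAT2AB_KD. The PPL log2 change was 1.37 in KAT2AB_KD and 2.93 in NT, a difference of -1.56 (SE 0.39, edgeR adjusted p = 0.0535). EVPL differed by -1.47 (edgeR adjusted p = 0.145) and CNFN by -1.19 (edgeR adjusted p = 0.409). With IVL and PPL they made 4 of the 8 at an unadjusted edgeR p under 0.05, and DESeq2 called 2. No gene of the 8 passed in KAT2A_KD minus NT or KAT2B_KD minus NT (0.654% and 0.888% of all genes did), with 3 and 2 at an unadjusted edgeR p under 0.05 and 1 and 0 called by DESeq2. The IVL differences there were -1.77 (SE 0.56, edgeR adjusted p = 0.223) and -0.51 (SE 0.93, edgeR adjusted p = 0.923). The CNFN log2 change was 9.41 in KAT2B_KD, from 2 reads in Confluent libraries, and 8.56 in NT, from 18. For LOR, KPRP and C1orf68 the test has no use, since NT Confluent libraries had no read of them. None passed in the differences of the Confluent against Subconfluent change, where at most 0.00635% of all genes did, and 0 had an unadjusted edgeR p under 0.05 or a DESeq2 call.

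Patterns of the 8 genes were compared across the 12 groups, as group means of log2 CPM. Pearson's r between pairs of them ran from 0.676, for PPL and C1orf68, to 0.981, for IVL and CNFN. The points share the jump at the Differentiated stage, and pairs with C1orf68 lay at 0.804 or below. The genes of most similar pattern among 15749 others were LYPD2 for LOR (r = 0.997), WFDC12 for IVL (0.994), DUOX1 for EVPL (0.992), AIF1L for PPL (0.990), MPZL3 for CNFN (0.996), CPEB2 for CSTA (0.997) and AZGP1P1 for KPRP (0.999). C1orf68 had no gene at r of 0.95 or more, its best being OSBPL1A (0.937), while CSTA had 1023 such genes and PPL 137.

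The other envelope genes were set out by list, and at the Differentiated stage in KAT2B_KD the late cornified envelope (LCE) family, which lies with LOR on chromosome 1, was lower as well. Of its 16 genes 15 fell against NT and none rose, with a median log2 change of -3.39, where 3.22% of all genes fell and 1.68% rose. Without 1 library that count was 7 to 10, the lowest without the second KAT2B_KD library. LCE3E fell by 4.58 on the log2 scale (edgeR adjusted p = 2.40e-08), LCE3D fell by 4.60 (6.16e-08) and LCE3C fell by 4.17 (3.60e-06), and these calls were kept whichever library was left out. Of 5 tested S100-fused type genes 3 fell: RPTN, which encodes repetin, fell by 2.19 (edgeR adjusted p = 0.00331), FLG2 fell by 3.07 (0.00663) and FLG, filaggrin, fell by 3.01 (0.0300), where the FLG call was lost without any 1 library and the FLG2 call without the first KAT2B_KD library. Of 12 other scaffold and crosslinked proteins 3 fell and 1 rose, among them CDSN, the corneodesmosome protein corneodesmosin, which fell by 3.29 (edgeR adjusted p = 7.62e-04), and 1 to 2 of the 12 passed without 1 library. Of 8 tested genes for the lipid attached to the envelope 4 fell, among them CYP4F22, a fatty acid hydroxylase, by 1.96 (edgeR adjusted p = 4.50e-04). Of 4 crosslinking enzymes 1 fell, the transglutaminase TGM5, by 1.65 (edgeR adjusted p = 0.00295), of 9 cystatins and cathepsins 2 fell, of 10 small proline-rich precursors (SPRR) 2 fell, and of 6 further plakins none passed. Without 1 library 1 to 2 cystatins and cathepsins passed, and 0 to 1 SPRR genes, the 0 without the second KAT2B_KD library. The LCE3 and SPRR2 genes have near-identical copies, and how reads that match several of them were assigned is not given, so their single-gene values are uncertain.

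The LCE list had calls on the opposite side in KAT2AB_KD Differentiated libraries, where 5 of 16 rose against NT and none fell, with a median log2 change of 1.64, where 2.72% of all genes passed in either direction. Without 1 library 3 to 4 of the 16 passed, the 3 without either NT library, and 11 passed in a fit of the compared groups alone. LCE3E rose by 2.12 (edgeR adjusted p = 6.99e-05). Of the other lists there, 1 gene passed, KRT1, a keratin of spinous cells, which fell by 1.87 (edgeR adjusted p = 0.00180), a call lost in the fit of the compared groups alone. In KAT2A_KD Differentiated libraries no LCE, SPRR, S100-fused, plakin, cystatin, lipid or crosslinking gene passed, and 2 of 12 other scaffold proteins rose, S100A11 and ANXA1, both calls lost in at least 3 of the 4 fits without 1 library. Before differentiation most list calls against NT were in KAT2AB_KD. At the Subconfluent stage 2 of 16 LCE and 3 of 12 other scaffold genes rose against NT, where 1.85% of all genes did. Of these scaffold genes, the DSG1 and SCEL calls were not kept whichever library was left out. Also higher at that stage were 8 of 10 SPRR genes and 2 of 4 crosslinking enzymes. Among them TGM1, the main membrane-bound transglutaminase of the envelope, rose by 3.57 (edgeR adjusted p = 1.00e-05). Without 1 library 3 to 7 SPRR genes passed, the 3 without the second NT library, and 3 in a fit of the compared groups alone, and the other crosslinking enzyme, TGM5, was lost without any 1 library. At the Confluent stage 2 of 16 LCE, 3 of 12 other scaffold and 2 of 8 tested lipid genes rose, where 1.38% of all genes did. Of 5 tested S100-fused genes 1 rose, and of 9 cystatins and cathepsins 1 rose. None of the counts in these lists, from LCE to cystatins and cathepsins, held whichever library was left out. In a fit of the compared groups alone 1 LCE, 1 lipid, 3 other scaffold and 3 S100-fused genes passed, and no cystatin or cathepsin. At the same stage 8 of 10 SPRR genes and 2 of 4 crosslinking enzymes rose. TGM1 rose by 1.499 (edgeR adjusted p = 0.00754), a call lost without the first KAT2AB_KD or the second NT library. The SPRR count there was 2 to 7 without 1 library, the 2 without the second NT library. In KAT2A_KD Subconfluent libraries, where 0.336% of all genes passed, 1 of 4 crosslinking enzymes, 1 of 10 SPRR, 2 of 16 LCE and 1 of 12 other scaffold genes rose against NT. Each of these calls was lost in at least 2 of the 4 fits without 1 library, and DESeq2 called 8 SPRR genes.

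**Figure D5:**
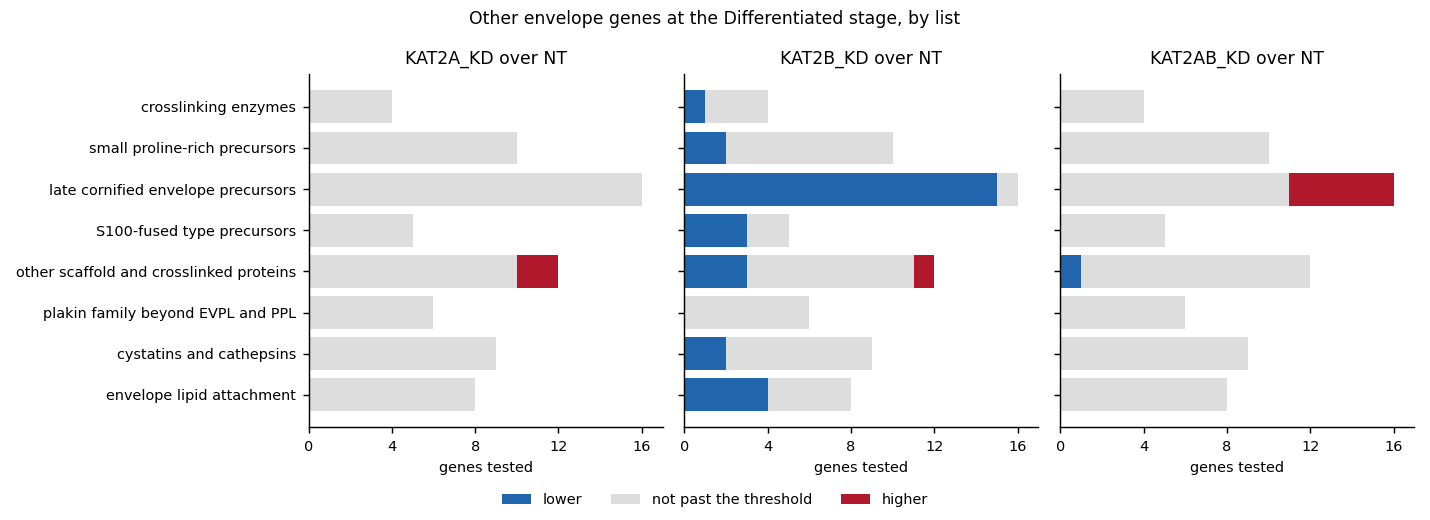
Number of tested genes in 8 lists of other envelope genes that were lower, not past the threshold or higher in each knockdown over NT in Differentiated libraries. Of 16 late cornified envelope genes, 15 were lower in KAT2B_KD, 5 were higher in KAT2AB_KD and none passed in KAT2A_KD.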

How the data were processed

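The authors deposited raw read counts per gene from polyadenylated RNA of 24 libraries. Per the submitters' processing notes the tools were FastQC, Bowtie2, featureCounts and DESeq2 with build hg19. The annotation, strand setting and treatment of reads that match several genes are not given in the sources used here. The kit was directional and reads single-end, per the labels. A deposited normalized table was not used, and 1 count column matched no sample and was left out. Libraries were grouped by labelled genotype and stage.

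Genes kept by edgeR's filterByExpr (minimum count 10; 15757 genes) entered 1 quasi-likelihood fit with robust estimation (R 4.3.3, edgeR 4.0.16, TMM scaling, 12 groups, 12 residual degrees of freedom), with 32 comparisons and Benjamini-Hochberg adjustment over all tested genes at 0.05. The SE is the log2 change over the square root of F. All 8 genes passed the filter: EVPL, PPL and CSTA were over its CPM cutoff in 24 libraries, CNFN in 18, IVL in 16, and LOR (8), KPRP (7) and C1orf68 (5) in Differentiated libraries alone. CPM were computed from the counts and the TMM-scaled library totals. A fold against a group at 0 used 3 counts per group, and intervals are 95% and cover counting error only, since reads are not independent molecules. Every member was named; the genes and the other envelope lists were chosen with earlier results of these data known. Alternatives were relative-log-expression size factors, no filter, the DESeq2 1.42.0 Wald test, the compared groups alone, a replicate block, leaving out each library and, added after seeing the data, no robust estimation. Promoter coordinates are GRCh38.p14 and were not joined to the counts, whose build is hg19. Exon lengths are from GENCODE v29.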

Additional observations from a re-analysis of the deposited data

Results flagged for a closer look

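The stage change of IVL differed between KAT2AB_KD and NT by a test of the difference itself. From Confluent to Differentiated culture the log2 change was 4.50 in KAT2AB_KD and 7.09 in NT, a difference of -2.59 (SE 0.52, edgeR adjusted p = 0.0114). The NT Confluent libraries held 10 IVL reads in all, and without the second of them the difference was -2.05 with an edgeR adjusted p of 0.145.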

How the results depend on the processing

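Outside the comparison of Differentiated with Confluent culture there were 22 calls on the 8 genes, of which 14 were kept in every fit without 1 library, whose lone remaining partner is assumed to vary like the other groups, and 8 were lost in at least 1 such fit. Relative-log-expression size factors and no robust estimation moved no count of called genes, and no value called in the report reversed. The cause of the changes below was not tested.

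With no filter on low counts the called genes of the 8 numbered 2 in KAT2B_KD, 1 in KAT2AB_KD and 1 in NT for Confluent against Subconfluent culture. Against NT they numbered 1, 1 and 1 in KAT2A_KD at the 3 stages, 1 and 6 in KAT2B_KD (Confluent, Differentiated), 2 in KAT2AB_KD Subconfluent and 3 in KAT2AB_KD Differentiated libraries. Between knockdowns they numbered 1 and 2 in KAT2A_KD against KAT2B_KD (Subconfluent, Confluent), 2 in KAT2AB_KD against KAT2A_KD Differentiated, and 2 and 4 in KAT2AB_KD against KAT2B_KD (Subconfluent, Confluent). For the difference of stage changes at differentiation they numbered 2 in KAT2A_KD and 3 in KAT2AB_KD, minus NT.

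With the DESeq2 Wald test they numbered 2 in KAT2B_KD and 1 in NT for Confluent against Subconfluent, 1 in KAT2A_KD Subconfluent, 5 in KAT2B_KD Differentiated and 2 in KAT2AB_KD Differentiated against NT, 1 in KAT2A_KD against KAT2B_KD Subconfluent, 1 in KAT2AB_KD against KAT2A_KD Differentiated, 2 and 3 in KAT2AB_KD against KAT2B_KD (Subconfluent, Confluent), and 1 in KAT2A_KD and 2 in KAT2AB_KD for the difference of stage changes. With the compared groups alone they numbered 1 in NT for Confluent against Subconfluent, 1 and 1 in KAT2A_KD (Confluent, Differentiated) and 2 in KAT2AB_KD Differentiated against NT, 0 in KAT2A_KD against KAT2B_KD Confluent, 1 in KAT2AB_KD against KAT2A_KD Subconfluent, 1 in KAT2AB_KD against KAT2B_KD Confluent, and 2 in KAT2A_KD for the difference of stage changes. That fit also lost LOR in KAT2A_KD Differentiated against Confluent libraries (edgeR adjusted p = 0.0629).

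A deposited sample table numbers the libraries of each group 2 and 3. Over 66 pairs of groups the deviations of same-numbered libraries correlated with a median of 0.118, over 0.1 in 37 and down to -0.256, so the numbers were not taken to pair libraries. With the number as a replicate block no call on the 8 genes was lost, and the count was 2 in KAT2AB_KD against NT Differentiated, 2 in KAT2AB_KD against KAT2B_KD Subconfluent and 2 in KAT2AB_KD minus NT for the change at differentiation.

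Leaving out 1 library gave 0 to 1 called genes in KAT2B_KD Confluent against Subconfluent, 0 to 2 in KAT2AB_KD Confluent and 0 in KAT2AB_KD Differentiated against NT, 0 to 1 and 3 to 4 in KAT2A_KD against KAT2B_KD (Confluent, Differentiated), and 1 to 2 and 1 to 3 in KAT2AB_KD against KAT2B_KD (Subconfluent, Confluent). For the change at differentiation minus NT it gave 0 to 1 in KAT2A_KD and 0 to 2 in KAT2AB_KD. Depth limits C1orf68, with 114 reads in all libraries, and IVL and CNFN before differentiation.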
